A study of Rattus norvegicus with 20 samples.

Results

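The vascular endothelial growth factor (VEGF) and angiopoietin family was examined in the dentate gyrus of rats with amygdala stimulation-induced epilepsy. Its members were listed by name: the ligands Vegfa, Vegfb, Vegfc, Pgf, Angpt1 and Angpt2, and the receptors Kdr, Flt1, Flt4 and Tek. For each gene the probe set annotated to that gene alone, and with the highest mean over the 20 arrays where there were several, was used. Of the 10 genes, 9 had such a probe set (1 each), namely 6 ligands and 3 receptors, out of 17245 genes with a single-gene probe set and 14586 genes tested. The transcript level of Kdr, the main signalling receptor for VEGF-A, was not analysed here. All 9 measured members lay above background on all 20 arrays, so none depended on a filter to be included.

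VEGF ligands are secreted dimers that bind receptor tyrosine kinases on endothelial cells and drive the growth and permeability of blood vessels, and lymphatic vessels in the case of VEGF-C and its receptor. Angiopoietins act on a second receptor kinase, Tie2, encoded by Tek: angiopoietin-1 stabilises vessels, while angiopoietin-2 opposes it in many settings. In the brain VEGF-A is also made by neurons and astrocytes, its transcription is raised by hypoxia, and it has been studied in seizure models for its effects on neurons and on the blood-brain barrier.

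Each rat gave 1 Affymetrix Rat Gene 1.1 ST array, which read transcript levels in the left dentate gyrus of adult male Sprague-Dawley rats. The 4 groups held 5 rats each: stimulated rats killed at 7 d, their sham-operated time-matched controls, stimulated rats killed at 30 d, and their sham-operated controls. All 20 rats carried an electrode in the left lateral amygdala. Only the stimulated rats received current and went into status epilepticus, which was stopped with diazepam. The study does not state whether the sham-operated rats received the drug. The effects of current and seizures, and of the drug if the controls had none, cannot be told apart. The tissue lay on the implanted side in stimulated and sham-operated rats alike. The values are log2 intensities after robust multi-array averaging (RMA), in which a difference of 1 is a 2-fold change. A level can be compared between rats for one probe set, but not between probe sets, since each has its own affinity. In bulk tissue fewer cells of a type and less RNA per cell cannot be told apart.

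Array medians lay between 5.22 and 5.31, and between 79.0% and 80.9% of probe sets exceeded the background of 3.69 on each array. Of the dentate granule cell markers, 9 of 10 listed had a probe set and all 9 were above background, but 8 of 9 measured markers of the CA fields were too. Wfs1, a marker of CA1 pyramidal cells, had a median of 7.30 over the 20 arrays and reached 9.25 and 8.64 in stimulated replicates 5 and 4 at 30 d, and 8.81 in sham-operated replicate 2 at 30 d. Ttr, a choroid plexus transcript, ranged from 4.31 to 6.64. Stimulated replicate 5 at 7 d and sham-operated replicate 3 at 30 d had the lowest mean correlation with the other rats of their groups, at 0.993 each.

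Vegfa and Vegfb were the members past the threshold in any comparison, and the 250 bases upstream of their annotated starts are shown because they carry several copies of the GC box, the GGGCGG motif that Sp1-type factors recognise, marked in capitals on either strand. The sequences are from RefSeq on the GRCr8 assembly, read 5′ to 3′ on the strand of the gene: Vegfa at chr9:22452604-22452853 (plus strand) and Vegfb at chr1:213607153-213607402 (minus strand).
Vegfa: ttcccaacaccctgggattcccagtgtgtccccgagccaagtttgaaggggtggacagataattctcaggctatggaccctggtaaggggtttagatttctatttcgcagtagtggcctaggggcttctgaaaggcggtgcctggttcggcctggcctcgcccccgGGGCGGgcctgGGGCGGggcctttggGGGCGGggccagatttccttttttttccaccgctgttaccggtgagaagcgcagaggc
Vegfb: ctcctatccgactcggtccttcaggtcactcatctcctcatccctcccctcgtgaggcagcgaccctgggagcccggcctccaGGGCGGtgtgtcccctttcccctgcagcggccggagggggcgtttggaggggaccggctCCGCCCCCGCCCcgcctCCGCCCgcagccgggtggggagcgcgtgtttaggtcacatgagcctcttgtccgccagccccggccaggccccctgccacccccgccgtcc
The Vegfa window held 3 GC boxes and the Vegfb window 4. The Flt1 and Flt4 windows also held 3 GC boxes each, those of Pgf and Vegfc 2 each, and that of Kdr 1. Of 33469 windows of the same length upstream of RefSeq gene starts, 7.41% held 3 or more and 3.67% held 4 or more. The hypoxia response core (ACGTG or GCGTG, on either strand), which HIF factors recognise, occurred 1 time in the Vegfb window and 0 times in this Vegfa window, against at least 1 occurrence in 36.7% of all windows. The Kdr window held 2 cores, the Flt1 and Pgf windows 1 each, and those of Flt4 and Vegfc 0. Sequence beyond the 250 bases was not searched, so a count of 0 does not bear on cores further upstream. A second annotated Vegfa start, at chr9:22460028-22460277 for its upstream window, had 0 copies of both motifs. These matches describe the letters in the windows, and binding was not measured.

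Vegfa fell in stimulated rats when both times were averaged. VEGF-A is the principal angiogenic ligand, acting through VEGFR-1 and VEGFR-2. At 7 d its log2 intensity was 7.72, 8.00, 7.97, 8.04 and 7.82 in the stimulated rats, against 8.15, 8.09, 8.30, 8.01 and 8.22 in the sham-operated rats. At 30 d it was 7.90, 7.84, 7.97, 8.15 and 7.88 in the stimulated rats, against 8.18, 8.19, 8.35, 8.00 and 8.16 in the sham-operated rats. At each time 4 of 5 stimulated rats lay below the lowest sham-operated rat, and the groups overlapped only through stimulated and sham-operated replicates numbered 4. The change was -0.24 at 7 d (SE 0.0754, 0.846 of the sham-operated level, adjusted p = 0.0597, limma with Benjamini-Hochberg adjustment over 15800 probe sets) and -0.22 at 30 d (SE 0.0754, 0.856 of the sham-operated level, limma adjusted p = 0.172). Neither passed the threshold of 0.05 at a single time. Averaged over both times, Vegfa fell by 0.23 on the log2 scale (95% interval -0.34 to -0.12), to 0.851 of the sham-operated level, with a limma adjusted p = 0.00588.

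The fall in Vegfa averaged over both times stayed past the threshold in all 32 alternatives that were run, with limma adjusted p between 0.00172 and 0.0224 and a change between -0.26 and -0.20. At 7 d alone Vegfa passed it in 7 of 33 alternatives. With all rats kept, these were each array centred on its median (limma adjusted p = 0.0274), the first principal component as covariate (0.0326) and array weights (0.0361). It also passed when sham-operated replicate 4 (0.0448, limma) or stimulated replicate 4 (0.0416) at 7 d was left out. The same held for sham-operated replicate 3 (0.0455) or stimulated replicate 4 (0.0437) at 30 d. The 7 d and 30 d changes differed by 0.02 (95% interval -0.20 to 0.24, limma adjusted p = 1). In the sham-operated rats Vegfa was 8.17 ± 0.124 at 30 d and 8.15 ± 0.111 at 7 d (SD, n = 5 each). The study placed Vegfa on a list of target genes that it chose on these same rats at 30 d. The 30 d value, and the average over both times that contains it, are thus not independent evidence of the direction of the Vegfa change.

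Vegfb fell at 7 d and did not pass the test at 30 d. VEGF-B binds VEGFR-1 and is known mainly for roles in the survival of neurons and vessels rather than in vessel growth. At 7 d its log2 intensity was 7.68, 7.59, 7.78, 7.57 and 7.78 in the stimulated rats, against 7.85, 7.99, 7.83, 7.85 and 7.86 in the sham-operated rats, and the groups did not overlap. The change was -0.19 (SE 0.0544, 0.875 of the sham-operated level, limma adjusted p = 0.0345). The 30 d values were 8.00, 7.99, 8.07, 8.12 and 8.06 in the stimulated rats, against 7.94, 7.94, 8.14, 8.01 and 7.95 in the sham-operated rats, and the groups overlapped. The change there was 0.05 (95% interval -0.06 to 0.17, limma adjusted p = 0.805).

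The Vegfb call at 7 d lay close to the threshold and was lost in 10 of 33 alternatives, including quantile normalization on top of RMA (limma adjusted p = 0.0664) and a fit of the 7 d groups alone (0.1). Leaving out sham-operated replicate 1, 2, 4 or 5 at 7 d gave limma adjusted p = 0.0535, 0.108, 0.0537 and 0.0618, and leaving out stimulated replicate 2 or 4 at 7 d gave 0.0968 and 0.0946, while the change stayed between -0.22 and -0.16. Without the 3 arrays with the highest Wfs1 the change at 7 d was -0.19 with a limma adjusted p = 0.0514, all 3 arrays being from 30 d. The change at 30 d exceeded that at 7 d by 0.25 (95% interval 0.09 to 0.41), with a limma adjusted p = 1. The sham-operated rats themselves averaged 8.00 ± 0.0855 at 30 d and 7.88 ± 0.0645 at 7 d (SD, n = 5 each), a difference of 0.12 (limma adjusted p = 0.365). The Vegfb change averaged over both times was -0.07 (limma adjusted p = 0.31).

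**Figure D1:**
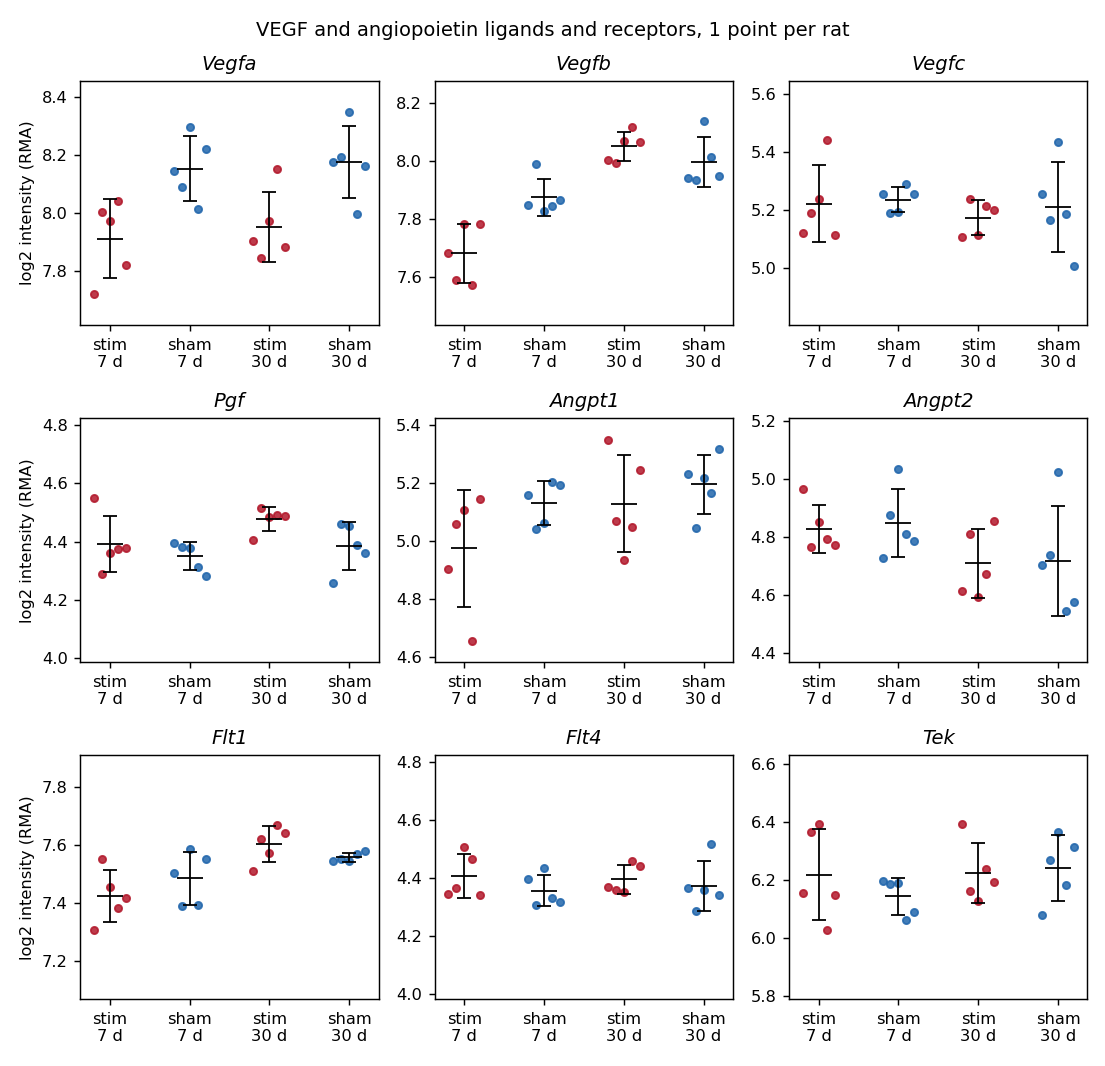
Log2 intensity (vertical axis, each panel spanning the same range) of the 9 measured VEGF and angiopoietin genes in stimulated (red) and sham-operated (blue) rats at 7 d and 30 d, 1 point per rat, with the group mean and SD in black. For Vegfa 4 of 5 stimulated rats lie below every sham-operated rat of the same time, and Vegfb is separated at 7 d alone.

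Of the other VEGF-type ligands, Vegfc and Pgf did not pass the test in any comparison. VEGF-C, which acts on VEGFR-3, was 5.22 ± 0.133 in stimulated and 5.24 ± 0.0435 in sham-operated rats at 7 d, and 5.17 ± 0.0591 in stimulated and 5.21 ± 0.155 in sham-operated rats at 30 d (SD, n = 5 each). Its changes were -0.01 and -0.04 at 7 d and 30 d, with 95% intervals from -0.16 to 0.13 and from -0.18 to 0.11. Stimulated replicate 4 at 7 d stood above the other rats of its group at 5.44.

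Placental growth factor, a VEGFR-1 ligand encoded by Pgf, was 4.55, 4.29, 4.36, 4.38 and 4.38 in stimulated rats at 7 d, against 4.39, 4.38, 4.38, 4.31 and 4.28 in sham-operated rats. The 30 d values were 4.41, 4.52, 4.48, 4.49 and 4.49 in stimulated rats, against 4.26, 4.46, 4.46, 4.39 and 4.36 in sham-operated rats. All stimulated rats at 30 d but replicate 1 lay above the highest sham-operated rat, so the groups overlapped. The changes were 0.04 and 0.09, with limma adjusted p = 0.747 and 0.531, and the 95% interval at 30 d ran from -0.01 to 0.20.

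The angiopoietins were measured with a wider spread between rats than any other member. Angpt1, the Tie2 agonist, was 4.91, 5.06, 5.11, 4.66 and 5.15 in stimulated rats at 7 d, against 5.16, 5.04, 5.06, 5.21 and 5.19 in sham-operated rats, and 2 of 5 stimulated rats lay below the lowest sham-operated rat. The change was -0.16 (SE 0.0861, 95% interval -0.34 to 0.02, limma adjusted p = 0.347). At 30 d stimulated rats had 5.35, 5.07, 4.94, 5.05 and 5.25, against 5.23, 5.04, 5.22, 5.17 and 5.32 in sham-operated rats, a change of -0.07 (95% interval -0.25 to 0.11). The change averaged over both times was -0.11 (limma adjusted p = 0.301).

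Angpt2, which endothelial cells store and release and which antagonises Tie2 in many settings, ranged from 4.77 to 4.96 in stimulated rats and from 4.73 to 5.03 in sham-operated rats at 7 d, and from 4.60 to 4.86 in stimulated rats and from 4.55 to 5.03 in sham-operated rats at 30 d. Its changes were -0.02 and -0.01, with limma adjusted p = 0.941 and 0.986. The residual SD was 0.144 for Angpt1 and 0.133 for Angpt2, against a median of 0.112 over all tested probe sets.

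Taken per rat, the mean log2 intensity of the 6 ligands lay between 5.81 and 5.89 in the stimulated rats at 7 d, against 5.91 to 5.97 in the sham-operated rats, without overlap. At 30 d it lay between 5.86 and 5.96 in the stimulated rats, against 5.88 to 6.10 in the sham-operated rats, with overlap. This mean is a description of the listed ligands and was not tested. At 7 d the changes of the single ligands were -0.24 for Vegfa, -0.19 for Vegfb and -0.16 for Angpt1. Those of Vegfc, Angpt2 and Pgf were -0.01, -0.02 and 0.04. The separation of the means at 7 d thus does not show a fall shared by all 6 ligands.

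None of the 3 measured receptors passed the test in any comparison. Flt1 encodes VEGFR-1, which binds VEGF-A, VEGF-B and placental growth factor and also acts as a decoy. At 7 d it was 7.31, 7.55, 7.46, 7.38 and 7.42 in stimulated rats, against 7.51, 7.39, 7.59, 7.39 and 7.55 in sham-operated rats, a change of -0.06 (95% interval -0.17 to 0.05, limma adjusted p = 0.594). Values at 30 d were 7.51, 7.62, 7.57, 7.67 and 7.64 in stimulated rats, against 7.55, 7.55, 7.54, 7.57 and 7.58 in sham-operated rats, a change of 0.05 (95% interval -0.06 to 0.15, limma adjusted p = 0.837). The stimulated rats lay on both sides of the sham-operated rats, whose own SD at 30 d was 0.016.

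Flt4 encodes VEGFR-3, the receptor for VEGF-C. It ranged from 4.34 to 4.51 in stimulated rats and from 4.31 to 4.43 in sham-operated rats at 7 d, and from 4.35 to 4.46 in stimulated rats and from 4.29 to 4.52 in sham-operated rats at 30 d. The changes were 0.05 and 0.02, with 95% intervals from -0.06 to 0.15 and from -0.08 to 0.13.

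Tek, the gene of Tie2, was 6.16, 6.37, 6.39, 6.03 and 6.15 in stimulated rats at 7 d, against 6.20, 6.18, 6.19, 6.06 and 6.09 in sham-operated rats. Stimulated replicates 2 and 3 stood above every sham-operated rat and replicate 4 below, and the change was 0.07 (95% interval -0.07 to 0.22, limma adjusted p = 0.651). At 30 d Tek was 6.39, 6.16, 6.13, 6.24 and 6.19 in stimulated rats, against 6.08, 6.27, 6.37, 6.18 and 6.31 in sham-operated rats, a change of -0.02 (95% interval -0.17 to 0.13, limma adjusted p = 0.964).

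**Figure D2:**
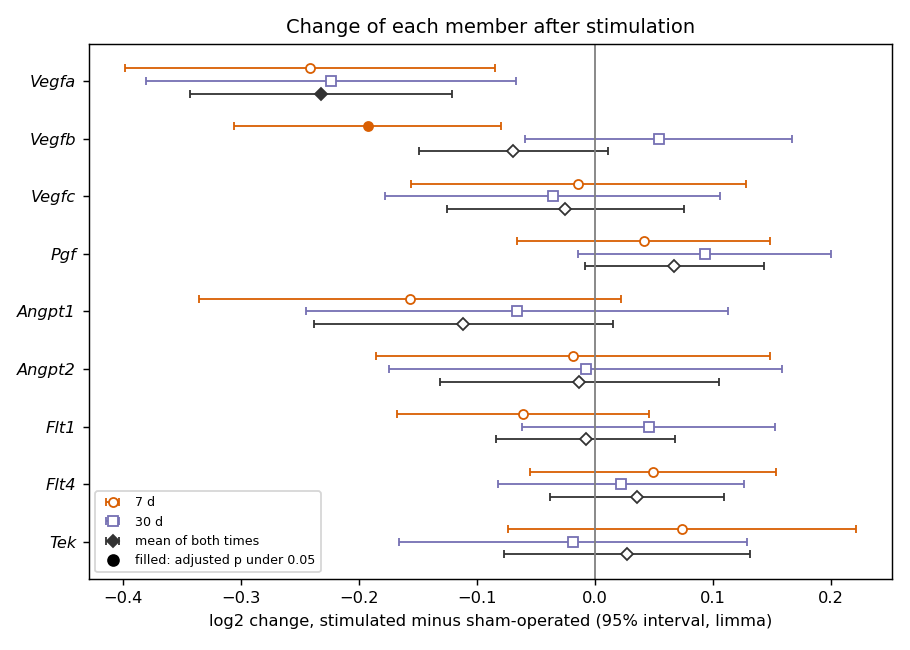
Log2 change of each member, stimulated minus sham-operated, at 7 d (circles), 30 d (squares) and averaged over both times (diamonds), with 95% intervals from limma; filled marks have an adjusted p under 0.05. Filled marks are Vegfb at 7 d (-0.19) and Vegfa averaged over both times (-0.23); the intervals of the other 7 genes include 0.

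Counted over the family, 1 of 9 members was called lower and 0 higher at 7 d (Vegfb), where 6.48% of all 15800 probe sets were called, and 2 of 9 had an unadjusted limma p under 0.05, against 18.4% of all probe sets. At 30 d 0 of 9 were called, against 1.73% of all probe sets, and 1 had an unadjusted p under 0.05, against 11.4%. Averaged over both times, 1 of 9 was called (Vegfa, lower), against 10.1% of all probe sets. The member counts are thus near these backgrounds. The 5 stimulated rats lay all on one side of the 5 sham-operated rats for 1 of 9 members at 7 d and 0 of 9 at 30 d, against 6.25% and 4.27% of all probe sets.

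The median change over the 9 members was -0.02 at 7 d and -0.01 at 30 d, beside 0.00 and -0.01 over all tested probe sets, and 6 of 9 changes at 7 d and 5 of 9 at 30 d were negative. For the difference between the 30 d and 7 d changes, 0 of 9 members and 0% of all probe sets were called by limma, and 1 member (Vegfb) had an unadjusted p under 0.05, against 4.32% of all probe sets. Between the sham-operated rats at 30 d and 7 d, 0 of 9 members and 0% of all probe sets were called by limma, and 1 member (Vegfb, 0.12) had an unadjusted p under 0.05, against 13.3% of all probe sets.

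Averaged over both times the neuropilins fell and Tie1 rose, though the Nrp2 and Tie1 calls were lost in 14 and 17 of 32 alternatives. Of 12 listed co-receptors and other family members, 9 had a probe set and 8 were tested. Vegfd, a further VEGFR-3 ligand, was at or near background, between 3.55 and 3.96 over all rats. At 7 d and at 30 d 0 of 8 were called, and averaged over both times 2 were lower (Nrp1 and Nrp2) and 1 was higher (Tie1), beside 10.1% of all probe sets in either direction. The median change of the 8 genes was 0.06 at 7 d and 0.07 at 30 d, and 5 and 6 of the 8 changes were positive. Nrp1 was the gene that the naming rule gave, while Nrp2 and Tie1 were named after their values were seen.

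Nrp1 encodes neuropilin-1, a co-receptor that presents VEGF-A to VEGFR-2 and also binds semaphorins in neurons. At 7 d it was 8.43, 8.41, 8.26, 8.33 and 8.32 in stimulated rats, against 8.47, 8.52, 8.57, 8.55 and 8.45 in sham-operated rats, without overlap. At 30 d it was 8.44, 8.34, 8.37, 8.33 and 8.42 in stimulated rats, against 8.40, 8.45, 8.46, 8.60 and 8.61 in sham-operated rats, with overlap. The changes were -0.16 and -0.12 (limma adjusted p = 0.0568 and 0.317), and averaged over both times Nrp1 fell by 0.14 on the log2 scale (SE 0.0354, limma adjusted p = 0.0113), a call kept in all 32 alternatives. At 7 d alone Nrp1 passed the threshold in 5 of 33 alternatives: without stimulated replicate 1 (limma adjusted p = 0.0391), with quantile normalization on top of RMA (0.0413), with each array centred on its median (0.031), without moderation (0.0386) and with the first principal component as covariate (0.0345).

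Nrp2, the neuropilin that pairs with VEGFR-3 and with class 3 semaphorins, was 8.85, 8.76, 8.74, 8.88 and 8.70 in stimulated rats at 7 d, against 9.01, 8.96, 8.87, 8.89 and 8.96 in sham-operated rats. Its 30 d values were 8.79, 8.81, 8.77, 8.82 and 8.80 in stimulated rats, against 8.94, 8.95, 8.71, 8.96 and 8.94 in sham-operated rats, all of which but replicate 3 lay above every stimulated rat. The average of both times fell by 0.13 on the log2 scale (SE 0.0367, limma adjusted p = 0.0308). This call was lost with quantile normalization on top of RMA (0.0522) and when any 1 of 12 of the 20 rats was left out, with adjusted p between 0.0508 and 0.0618: sham-operated replicates 1, 2 and 5 and stimulated replicates 2, 3 and 5 at 7 d, and sham-operated replicates 1, 2, 4 and 5 and stimulated replicates 1 and 3 at 30 d. Without the 3 arrays with the highest Wfs1 it was 0.0984. At 7 d alone Nrp2 passed without sham-operated replicate 3 at 30 d (limma adjusted p = 0.0346), with array weights (0.0185) and with each array centred on its median (0.0413), and at 30 d alone with array weights (0.0326).

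Tie1, the orphan receptor that associates with Tie2 on endothelial cells, was 6.01, 6.14, 6.11, 6.26 and 6.31 in stimulated rats at 7 d, against 6.13, 5.91, 5.99, 5.90 and 6.01 in sham-operated rats. At 30 d it was 6.05, 6.16, 5.84, 6.00 and 5.97 in stimulated rats, against 5.95, 5.83, 5.69, 5.81 and 6.00 in sham-operated rats, so the groups overlapped at both times. Averaged over both times it rose by 0.16 (SE 0.05, 1.12 times the sham-operated level, limma adjusted p = 0.0387). The call was lost with each array centred on its median (0.0704), with array weights (0.142), without moderation (0.0554), and when any 1 of 12 of the 20 rats was left out, with adjusted p between 0.0517 and 0.0829: sham-operated replicates 2, 4 and 5 and stimulated replicates 2, 4 and 5 at 7 d, and sham-operated replicates 2, 3 and 4 and stimulated replicates 1, 2 and 4 at 30 d. Without the 3 arrays with the highest Wfs1 it was 0.1, and without the 2 arrays with the lowest correlation 0.125.

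**Figure D3:**
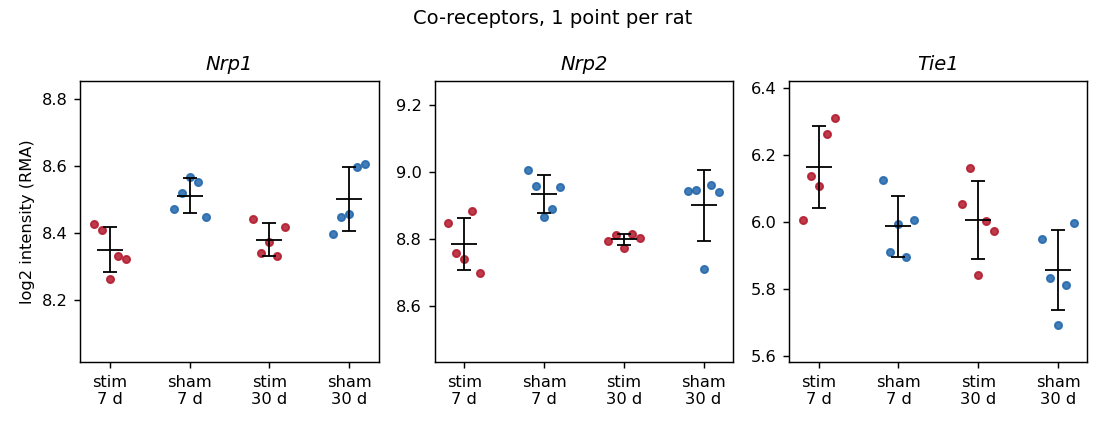
Log2 intensity (vertical axis, each panel spanning the same range) of Nrp1, Nrp2 and Tie1 in stimulated (red) and sham-operated (blue) rats at 7 d and 30 d, 1 point per rat, with group mean and SD in black. Nrp1 is without overlap at 7 d (stimulated 8.26 to 8.43, sham-operated 8.45 to 8.57), and the groups of Nrp2 and Tie1 overlap at both times.

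Among the signal transducers downstream of the receptors, 16 of 19 listed had a probe set and 15 were tested. At 7 d 1 of 15 was higher and 0 lower, beside 6.48% of all probe sets, and at 30 d 0 were called, beside 1.73%, with medians of 0.00 and 0.01 on the log2 scale. The one called, Grb2, encodes an adaptor that links phosphorylated receptors to Ras. It lay between 8.14 and 8.42 in stimulated rats and between 7.93 and 8.09 in their controls at 7 d, a rise of 0.28 (SE 0.0532, limma adjusted p = 0.00198). With the mean of its probe sets in place of the brightest, the change was 0.08 with a limma adjusted p = 0.399, so its probe sets disagreed. Averaged over both times 2 of 15 were higher (Grb2 and Shc1, a further adaptor, 0.30, limma adjusted p = 0.0223) and 1 was lower (Prkca, a protein kinase C, -0.17, limma adjusted p = 0.0377), beside 10.1% of all probe sets, Shc1 and Prkca being named after their values were seen. The averaged Grb2 change was 0.08 with the mean of its probe sets (limma adjusted p = 0.19). The Shc1 call was lost without moderation (0.0533) and without the 2 arrays with the lowest correlation (0.0628). The Prkca call was lost in 14 of 32 alternatives, namely without moderation (0.0544), with a replicate block (0.0656), without the 2 arrays with the lowest correlation (0.0528), and when any 1 of 11 rats was left out (limma adjusted p between 0.0513 and 0.0789): sham-operated replicates 1, 2 and 3 and stimulated replicates 4 and 5 at 7 d, and sham-operated replicates 2, 4 and 5 and stimulated replicates 1, 2 and 4 at 30 d.

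The angiogenic response list holds genes that endothelial cells raise on VEGF stimulation or in tip cells, and all 20 listed had a probe set, of which 19 were tested. At 7 d 3 of 19 were higher and 0 lower (Mmp9, Rcan1 and Ets1), beside 6.48% of all probe sets, and at 30 d 0 were called, beside 1.73%. The median change was 0.02 at 7 d and -0.00 at 30 d. Averaged over both times 3 of 19 were higher (Mmp9, Rcan1 and Cd34) and 1 was lower (Nr4a1), beside 10.1% of all probe sets, Cd34 and Nr4a1 being named after their values were seen. Mmp9, Rcan1 and Ets1 are also expressed in cells outside vessels.

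Mmp9, the gelatinase that cleaves basement membrane, was 6.14, 6.51, 5.72, 5.59 and 5.65 in stimulated rats at 7 d, against 4.53, 4.41, 4.26, 4.19 and 4.42 in sham-operated rats. It rose by 1.56 on the log2 scale, or 2.95-fold (SE 0.221, limma adjusted p = 2e-04). Values at 30 d were 5.21, 5.76, 4.82, 4.43 and 6.03 in stimulated rats, against 4.46, 4.62, 4.38, 4.15 and 4.39 in sham-operated rats, with overlap through stimulated replicate 4. The change there was 0.85 (limma adjusted p = 0.0525) and 12 of 33 alternatives put it past the threshold, including leaving out stimulated replicate 2, 4 or 5 at 7 d (0.0442, 0.0499 and 0.0445) or stimulated replicate 3 or 4 at 30 d (0.0371 and 0.00484).

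Rcan1, the calcineurin regulator that VEGF induces in endothelial cells, lay between 7.48 and 7.90 in stimulated rats and between 7.20 and 7.47 in the sham-operated controls at 7 d, a rise of 0.30 (SE 0.0675, limma adjusted p = 0.00844, and 0.058 in a fit of the 7 d groups alone). Ets1, a transcription factor of endothelial cells and lymphocytes, rose by 0.24 at 7 d (SE 0.0701, limma adjusted p = 0.0433), with 5.58 to 6.09 in stimulated rats and 5.40 to 5.62 in sham-operated rats. The Ets1 call was lost in 20 of 33 alternatives. Of these, 14 left out 1 rat, with adjusted p between 0.0503 and 0.13: sham-operated replicates 1, 2, 4 and 5 and stimulated replicates 2, 4 and 5 at 7 d, and sham-operated replicates 1, 2, 4 and 5 and stimulated replicates 1, 3 and 4 at 30 d.

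The hypoxia pathway, the best known control of Vegfa transcription, showed no call at a single time. All 19 listed genes were tested and 0 passed at 7 d or at 30 d, beside 6.48% and 1.73% of all probe sets, with medians of -0.04 and 0.04 on the log2 scale. The smallest limma p belonged to Hmox1, the heme oxygenase, at 7 d, with a change of 0.39 (SE 0.125, limma adjusted p = 0.0685). Hmox1 was 5.26 in stimulated replicate 5 and 4.29 to 4.39 in the other stimulated rats at 7 d, against 3.94 to 4.26 in sham-operated rats. Without stimulated replicate 5 the change was 0.21 (limma adjusted p = 0.0688), without the 2 arrays with the lowest correlation it was 0.21 (0.0415), and the same array had the highest mean level of microglia and macrophage markers, 7.71, and a mean correlation with its group of 0.993. Hif1a, the oxygen-regulated subunit of HIF-1, changed by -0.04 (95% interval -0.24 to 0.16) at 7 d and 0.00 (95% interval -0.20 to 0.20) at 30 d. These are transcript levels, and HIF protein was not measured. In the average of both times 2 of 19 were called, beside 10.1% of all probe sets, both higher: Hmox1 (0.30, limma adjusted p = 0.0323) and Ddit4, an inhibitor of mTORC1 (0.20, limma adjusted p = 0.0439). The Hmox1 call was lost in 9 of 32 alternatives, with the background at the 30th percentile (0.0686), each array centred on its median (0.051), no moderation (0.0703), without the 3 arrays with the highest Wfs1 (0.0698), and without sham-operated replicate 4 at 7 d, sham-operated replicate 3 or 4 at 30 d or stimulated replicate 1 or 2 at 30 d (limma adjusted p between 0.0557 and 0.0659), while without the 2 arrays with the lowest correlation the change was 0.19 (0.00482). Ddit4 lost its call in 17 of 32, with each array centred on its median (0.0647), array weights (0.0546), no moderation (0.0746), without the 2 arrays with the lowest correlation (0.123), and when any 1 of 13 rats was left out (limma adjusted p between 0.0564 and 0.0879): sham-operated replicates 1, 2 and 4 and stimulated replicates 2, 4 and 5 at 7 d, and sham-operated replicates 1, 3 and 4 and stimulated replicates 1, 2, 3 and 5 at 30 d. Hif1a, Epas1 and Ddit4 were named after their values were seen, and Epas1, the HIF-2 subunit that is abundant in endothelium, changed by -0.07 and -0.01.

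**Figure D4:**
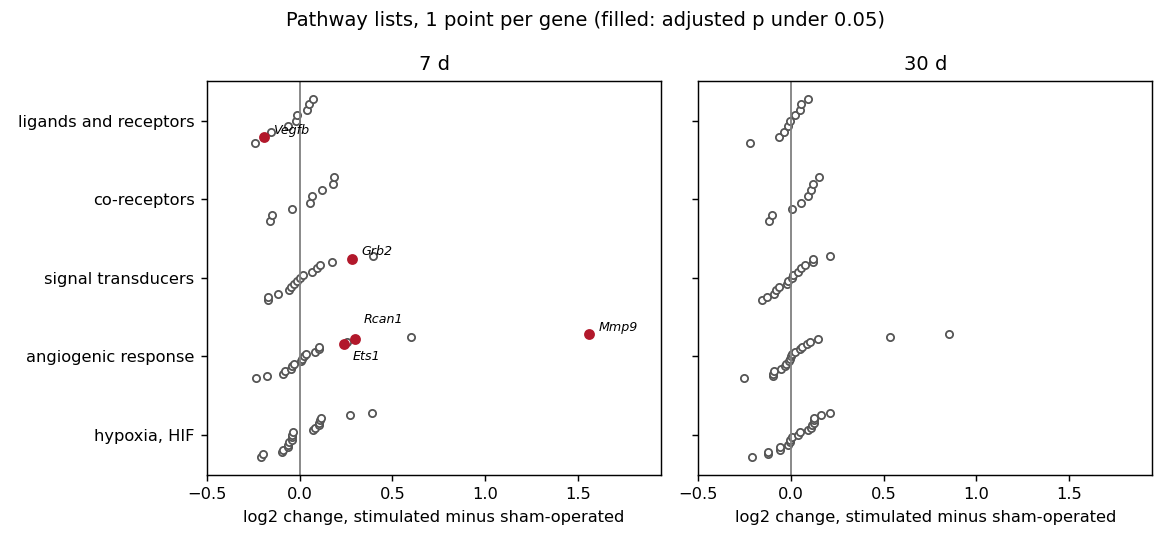
Log2 change, stimulated minus sham-operated (horizontal axis), of every tested gene of the family and of the 4 pathway lists, at 7 d (left) and 30 d (right), 1 point per gene, spread vertically in rank order; filled red points have a limma adjusted p under 0.05. At 7 d Vegfb, Grb2, Rcan1, Ets1 and Mmp9 are filled, Mmp9 at 1.56 lying far to the right, and at 30 d no point is filled.

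The family is expressed on and around vessels, so markers of the cell types in the tissue are given beside it. Of the endothelial markers 17 of 18 listed were tested. They include Tie1 and Slc2a1, which are also in the co-receptor and hypoxia lists. At 7 d 1 was higher (Fli1, a transcription factor also of blood lineages, 0.27, limma adjusted p = 0.0368) and at 30 d 0. Of all probe sets 6.48% were called at 7 d and 1.73% at 30 d, so the endothelial counts are near these shares. The Fli1 call was lost in 14 of 33 alternatives, 8 of which left out 1 rat (limma adjusted p between 0.0514 and 0.103): sham-operated or stimulated replicate 2, 3, 4 or 5 at 7 d. It was also lost with quantile normalization (0.0508), each array centred on its median (0.0514), only the groups compared (0.0507), no moderation (0.0624), without the 3 arrays with the highest Wfs1 (0.052) and without the 2 arrays with the lowest correlation (0.0628). Per rat the mean level of the list was 6.18 to 6.30 in stimulated and 6.11 to 6.28 in sham-operated rats at 7 d, and 6.28 to 6.38 in stimulated and 6.13 to 6.29 in sham-operated rats at 30 d. The changes were positive for 15 of 17 genes at 7 d and 16 of 17 at 30 d, with medians of 0.07 and 0.10 beside 0.00 and -0.01 over all tested probe sets. Averaged over both times 2 of 17 were higher (Fli1 and Tie1), beside 10.1% of all probe sets. Cdh5, the endothelial cadherin, changed by 0.00 and 0.07. Of 11 tested markers of pericytes and smooth muscle, 0 were called at either time, and 7 of the changes were positive at 7 d and 10 at 30 d, with medians of 0.08 and 0.08. Their mean level per rat was 6.10 to 6.28 in stimulated and 6.08 to 6.25 in sham-operated rats at 7 d, and 6.33 to 6.36 in stimulated and 6.18 to 6.28 in sham-operated rats at 30 d, where the groups did not overlap. The part of vessel wall cells in the changes of the family was not tested.

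Of 15 microglia and macrophage markers 12 were higher at 7 d and 5 at 30 d, beside 6.48% and 1.73% of all probe sets. Their mean level per rat was 6.78 to 7.71 in stimulated and 6.20 to 6.25 in sham-operated rats at 7 d. At 30 d it was 6.42 to 7.37 in stimulated and 6.19 to 6.38 in sham-operated rats. The groups did not overlap at either time. Of 9 tested astrocyte markers 3 were higher at 7 d and 2 at 30 d, beside the same shares of all probe sets. Of these markers 5 changed upward at 7 d and 9 at 30 d, with median changes of 0.04 and 0.12. Their mean levels were 9.71 to 9.96 in stimulated and 9.56 to 9.71 in sham-operated rats at 7 d. The lowest stimulated rat there (9.71) lay just above the highest sham-operated rat (9.706). At 30 d the levels were 9.79 to 10.1 in stimulated and 9.63 to 9.80 in sham-operated rats, with overlap. Of 9 dentate granule cell markers 2 were lower at each time (C1ql3 at both, -0.38 and -0.35), beside the same shares of all probe sets. Calb1 was called at 7 d (-0.38, limma adjusted p = 0.0214), a call lost in 5 of 33 alternatives. Averaged over both times 4 of 9 granule cell markers were lower, beside 10.1% of all probe sets. Of the 9 markers 2 changed upward at each time, by up to 0.51 at 7 d, and the median changes were -0.14 and -0.15. Their mean levels were 7.61 to 7.77 in stimulated and 7.71 to 7.98 in sham-operated rats at 7 d, with overlap. At 30 d the levels were 7.59 to 7.79 in stimulated and 7.80 to 7.93 in sham-operated rats, and the groups did not overlap. Of 8 CA field markers and of 9 choroid plexus and meningeal markers 0 were called at either time. The CA field markers had mean levels of 7.02 to 7.19 in stimulated and 7.06 to 7.38 in sham-operated rats at 7 d, and 6.92 to 7.70 in stimulated and 6.99 to 7.46 in sham-operated rats at 30 d. The choroid plexus and meningeal markers had mean levels of 5.38 to 5.85 in stimulated and 5.30 to 5.66 in sham-operated rats at 7 d, and 5.59 to 5.84 in stimulated and 5.42 to 5.58 in sham-operated rats at 30 d, where the groups did not overlap. Their median change was 0.10 at 7 d and 0.17 at 30 d. Averaged over both times 1 of 9 was higher (Dcn, a proteoglycan of connective tissue, 0.55, limma adjusted p = 0.0116), beside 10.1% of all probe sets. The part of these cell types in the changes of Vegfa, Vegfb and Mmp9 was not tested.

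Without the 3 arrays with the highest Wfs1 the Vegfa change was -0.26 at 30 d and -0.25 averaged over both times (limma adjusted p = 0.217 and 0.00914). Without the 2 arrays with the lowest correlation it was -0.22 at 7 d, -0.18 at 30 d and -0.20 averaged over both times (limma adjusted p = 0.119, 0.317 and 0.0224). Leaving out those 2 arrays gave -0.22 for Vegfb at 7 d, with a limma adjusted p = 0.015.

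**Figure D5:**
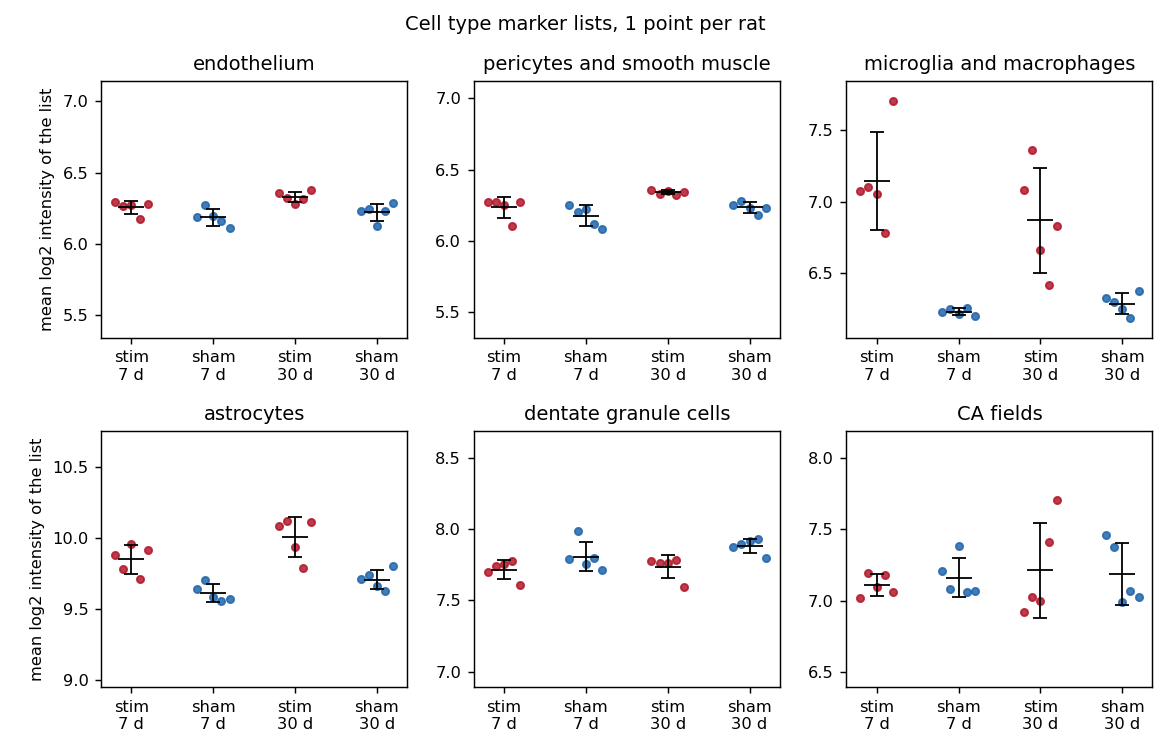
Mean log2 intensity of the tested genes of 6 cell type marker lists (vertical axis, each panel spanning the same range) in stimulated (red) and sham-operated (blue) rats at 7 d and 30 d, 1 point per rat, with group mean and SD in black. Microglial markers lie higher in every stimulated rat than in every sham-operated rat at both times, while the endothelial list overlaps at 7 d, with 6.18 to 6.30 in stimulated and 6.11 to 6.28 in sham-operated rats.

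Likeness between probe sets was taken as Pearson's r of the deviations from the group means over the 20 arrays, which share their group sizes and normalization, and is given as a description. The 3 genes most like Vegfa were Diras1 (r = 0.819), Ksr2 (0.818) and Zfhx2 (0.818), with Spearman's rho of 0.789, 0.815 and 0.842. Those most like Vegfb were Plekha5 (r = 0.809), Retreg1 (0.799) and Zfp347 (0.798), with rho of 0.814, 0.794 and 0.82. Without the 2 most extreme arrays r lay between 0.68 for Retreg1 and 0.85 for Zfhx2. None of these 6 genes passed the limma test at 7 d or at 30 d, where their adjusted p lay at 0.101 or above.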

How the data were processed

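Total RNA of the left dentate gyrus from 20 rats was hybridised to Rat Gene 1.1 ST arrays (Affymetrix), 1 per rat. The authors deposited log2 values that they had normalized with robust multi-array averaging (oligo 1.22.0, per the submitters' processing notes). The genome build behind the probe sets was not given in the sources used here. RMA sets the probe intensities of all arrays to one distribution, so a shift shared by all genes would not be seen. The summarised values still differed somewhat between arrays, with medians from 5.22 to 5.31. The number of arrays limits the precision, since array values carry no depth.

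Of 29214 probe sets, the 18644 annotated to 1 gene were kept, while 962 had several genes and 9608 had none. Symbols were updated by gene identifier through RefSeq (GRCr8), which matched 99.01%. Following the study's methods, values under a background were set to it, and probe sets that failed to exceed it on more than 5 arrays were dropped, leaving 15800. The study's background was the median of antigenomic probes, for which the 20th percentile of all values (3.69) stood in here. A model of 4 group means was fitted over all 20 arrays with limma 3.58.1 (R 4.3.3), all groups sharing one estimate of the spread. The contrasts took stimulated minus sham-operated rats at each time and averaged over both times, the difference of the 2 changes, and sham-operated rats at 30 d minus 7 d. They share arrays. Adjusted p are two-sided, by Benjamini-Hochberg over all 15800 probe sets, with 0.05 as threshold. The procedure was tested on simulated data with known changes.

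All 10 members were to be named. Of each pathway list up to 4 genes past the threshold at either time were named, or otherwise the one with the smallest p. Likeness was computed for members past the threshold. The members and lists were chosen with earlier results of these data known. Motifs were counted in the 250 bases upstream of RefSeq starts, of which 7 of the 10 members had a window. Alternatives covered the filter, normalization, array weights, moderation, the groups fitted, probe set averaging, a replicate block, the first principal component, and leaving out rats. Leaving out the 3 arrays with the highest Wfs1, or the 2 with the lowest correlation, was chosen after seeing the data.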

Additional observations from a re-analysis of the deposited data

Results flagged for a closer look

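Values within groups of 5 rats were examined for the 9 members and for Nrp1, Nrp2 and Tie1, in 48 groups, and 2 had a rat far from the others, where chance flags about 1 in 20 groups. Sham-operated replicate 2 at 7 d had the highest Vegfb of its group, 7.99, with the next at 7.87, and without it the limma adjusted p of Vegfb at 7 d was 0.108. Sham-operated replicate 3 at 30 d had the lowest Nrp2 of its group, 8.71, with the next at 8.94. The same array had one of the lowest mean correlations with its group, 0.993.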

How the results depend on the processing

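The 9 members kept their direction wherever they were called, and the Vegfa fall averaged over both times kept its call in all 32 alternatives. The number of members called at 7 d, 1 as reported, was 0 with quantile normalization, with only the groups compared, with a replicate block and without the 3 arrays with the highest Wfs1, 2 with each array centred on its median, with array weights and with the first principal component as covariate, and 0 to 2 when 1 rat was left out. With array weights 1 member (Vegfa, limma adjusted p = 0.0494) was called at 30 d.

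Over all probe sets, 1024 calls at 7 d became 1807 with the principal component (685 to 1257 without 1 rat). The 274 calls at 30 d became 764 with array weights, 150 without moderation, 457 with the principal component, and 132 to 393 without 1 rat. The difference of the changes gave 0 calls, 2 with array weights, and 0 to 1 without 1 rat. Sham-operated rats at 30 d against 7 d gave 0 calls, 1394 with array weights, 1167 with the principal component, and 0 to 1 without 1 rat. Centring each array on its median turned 635 higher and 389 lower at 7 d (62% higher) into 502 and 574 (46.7%), and 884 and 705 averaged over both times (55.6%) into 755 and 921 (45%). The cause of these differences was not tested.

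Replicate numbers did not pair the rats: arrays of the same number had a mean correlation of deviations of -0.0291 (-0.489 to 0.241), against 0.0077 for different numbers, and 2 of 20 arrays were most like one of their own number. With the replicate block Vegfb at 7 d had a limma adjusted p of 0.0528 and Vegfa averaged over both times 0.00889. The number of rats, 5 a group, limits the size of change that could be detected, and the 95% interval of the Angpt1 change at 7 d, the widest of a member, ran from -0.34 to 0.02.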
